A study of Mus musculus with 6 samples.

Results

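The genes that build fatty acids from citrate and then lengthen or desaturate them were examined in cultures of mouse adipose-derived stem cells (ADSCs). The cultures were put through adipocyte differentiation with or without the compound NJT-2. The set was chosen by gene name and holds 9 of the 4864 genes analysed here, namely *Acly*, *Acaca*, *Fasn*, *Elovl1*, *Scd2*, *Scd3*, *Fads1*, *Fads2*, and *Fads3*. ADSCs, the precursor cells of adipose tissue, came from the subcutaneous depot of wild-type animals, which the methods of the study describe as male C57BL/6J mice, and all 6 libraries came from cultures put through primary adipocyte differentiation. In 3 libraries the cultures received vehicle, and in the other 3 they received NJT-2, a plant triterpenoid (saikosaponin A) studied as an activator of PPARγ, the nuclear receptor that drives fat cell formation. The labels do not say whether the replicates were separate animals or separate cultures, so the p-values below measure the spread between these libraries, which may be technical. The comparison asked how the RNA of each step of the pathway differed between the groups.

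In de novo lipogenesis, citrate exported from mitochondria is cleaved to acetyl-CoA, acetyl-CoA is carboxylated to malonyl-CoA, and fatty acid synthase condenses these units into palmitate with NADPH as the reductant. Elongases then add carbons, the stearoyl-CoA desaturases place the first double bond in saturated chains, and the FADS enzymes insert further double bonds, mainly in the polyunsaturated chains taken from the diet. In adipose tissue the pathway is known to respond to insulin, to SREBP-1c, and to ChREBP, and its products are stored as triglyceride or built into membranes.

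Before the single genes, the libraries themselves set limits. The analysed genes held between 16093037 and 28929673 counts per library, or 27.7% to 32.5% of the library total implied by the FPKM. Vehicle replicate 1 and NJT-2 replicate 2 stood apart from the other replicates of their groups (voom quality weights of 0.141 and 0.130, the lowest of the 6). Vehicle replicate 3 also had a low weight, 0.438. Values without vehicle replicate 1 and NJT-2 replicate 2 are given beside the genes whose fold changes depended on these libraries. They were picked from the same data, and leaving them out lessens the spread within groups, so those adjusted p-values are likely too small. Adipocyte markers were much higher with NJT-2, where their summed FPKM ran from 489 to 1720 over 11 genes found, against 82.5 to 106 with vehicle. Of the 10 tested, 6 were called, that is, had an adjusted p under 0.05 with an absolute log2 fold change over 1 in edgeR. By this rule 0.702% of all tested genes were called. *Adipoq*, which encodes adiponectin and defines mature adipocytes, had only 0.38, 0.50, and 0.39 FPKM in the vehicle libraries against 64.6, 22.0, and 58.5 FPKM with NJT-2. The vehicle libraries, though labelled as differentiated, were close to 0 for this marker. Progenitor and fibroblast markers had lower sums with NJT-2, with a summed FPKM of 1160 to 1470 for vehicle and 500 to 522 for NJT-2 over 6 genes, of which 1 was called. All 6 had negative log2 fold changes in edgeR, but their parts in the sums were uneven. In vehicle replicate 1, *S100a4* alone gave 1240.82 of the 1470 FPKM. *Col1a1* had 118 FPKM there, 510 and 691 FPKM in vehicle replicates 2 and 3, and 376 to 408 FPKM with NJT-2. Macrophage markers summed to between 9.67 and 12.7 FPKM with vehicle and between 31.2 and 56.9 FPKM with NJT-2 over 4 genes found, 1 of 3 tested was called, and *Cd163* was at or near 0 in every library. Proliferation markers summed to 30.2 to 65.2 FPKM and 27.0 to 36.7 FPKM, in that order, and none of 6 was called. Endothelial (0.45 to 2.18 and 1.34 to 2.46), neural (0.06 to 8.09 and 2.84 to 14.5), and hepatocyte (0.92 to 3.47 and 1.98 to 7.06) markers had low summed FPKM in both groups, and *Tat* of the last list was at 0 in all libraries. In such bulk samples, fewer cells of a type and less RNA per cell cannot be told apart. What part these shifts had in the values of the lipogenic genes was not tested.

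The response of the 9 genes was uneven along the pathway. All 9 were tested, and in the edgeR quasi-likelihood fit none was called, that is, none had a Benjamini-Hochberg adjusted p under 0.05 with an absolute log2 fold change over 1, where 0.702% of all tested genes were called. At an unadjusted p under 0.05 there were 3, *Acaca* and *Scd2* with higher and *Fads2* with lower values, beside 17.8% of all genes by this looser rule (8.04% higher and 9.72% lower). DESeq2 called none of the 9 either, against 7.80% of all genes. By the sign of the edgeR log2 fold change, 5 were higher with NJT-2 and 4 lower, where 50.8% of all genes were higher. The 4 include *Fads3* at −0.02, for which no direction can be given. The median log2 fold change was 0.49 for the 9 genes and 0.02 for all genes tested. Only *Scd3* had FPKM values that did not overlap between the groups, which is 1 of 9, and 25.9% of all genes were separated in this way.

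**Figure D1:**
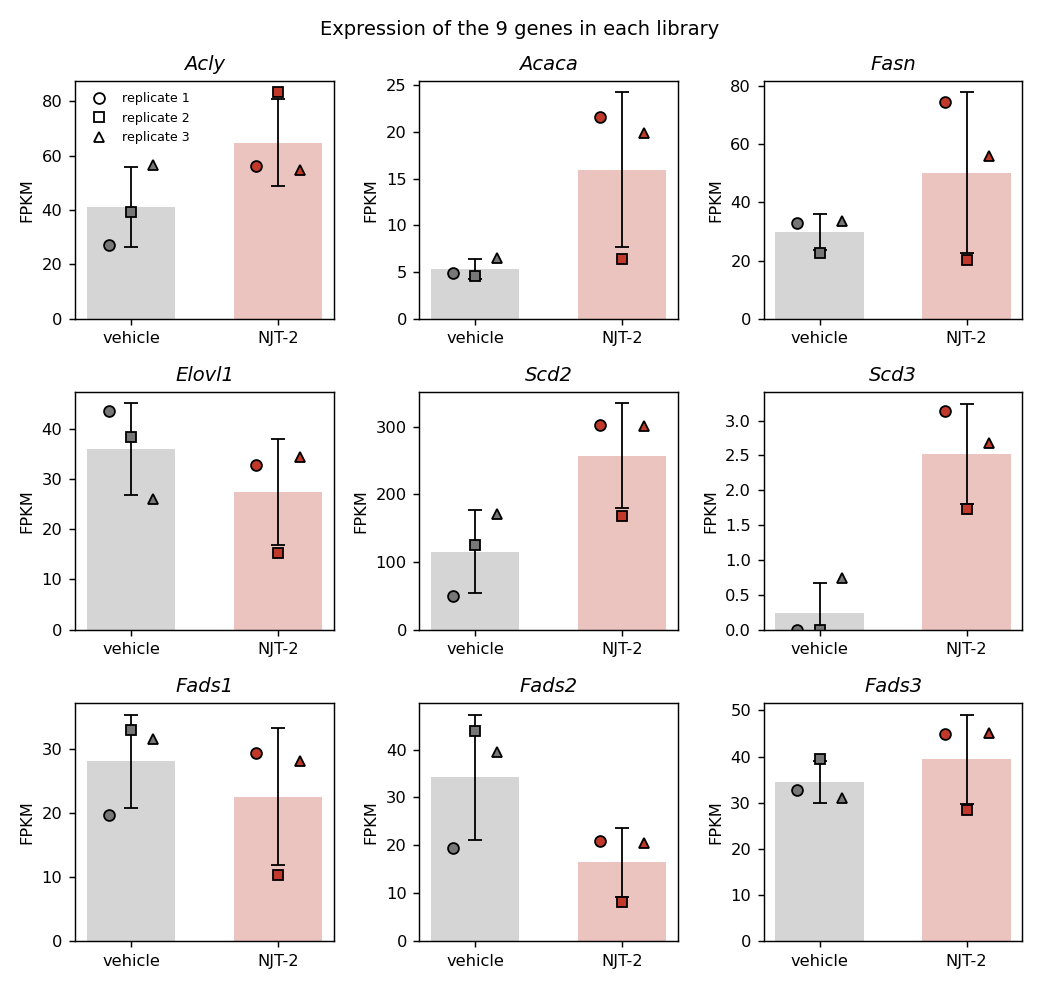
FPKM of each gene on a linear axis from 0, with bars for the mean of 3 libraries, whiskers for 1 SD, and a point for every library (circle, square, and triangle for replicates 1, 2, and 3). In the NJT-2 group the square lies below the circle and the triangle in every panel other than that of *Acly*, and *Scd3* is the 1 gene whose groups do not overlap.

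The pathway starts with *Acly* (ENSMUSG00000020917, GRCm38 chr11:100476353-100528000, minus strand), which encodes ATP citrate lyase, the cytosolic enzyme that splits citrate into acetyl-CoA and oxaloacetate. Its FPKM was 27.2, 39.3, and 56.6 in vehicle replicates 1 to 3 and 56.3, 83.3, and 54.9 in NJT-2 replicates 1 to 3. NJT-2 replicate 2 was the highest of all libraries, while vehicle replicate 3 reached the level of the other NJT-2 libraries, so the groups overlapped. The means were 41.0 ± 14.8 and 64.9 ± 16.01 FPKM (SD, n = 3 each). The log2 fold change in edgeR was 0.54 (SE 0.35, 95% interval −0.27 to 1.36, adjusted p = 0.391), which did not pass the test. Without both libraries that stood apart it was 0.21.

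*Acaca* (ENSMUSG00000020532, chr11:84129672-84401645, plus strand) encodes acetyl-CoA carboxylase 1, which makes malonyl-CoA in the committed step of the pathway. Vehicle libraries had 4.87, 4.53, and 6.49 FPKM and NJT-2 libraries had 21.6, 6.42, and 19.9 FPKM. NJT-2 replicates 1 and 3 lay far above every vehicle library, and NJT-2 replicate 2 fell just under the highest vehicle value. The group means of 5.30 ± 1.05 and 15.9 ± 8.30 FPKM (SD, n = 3) gave a fold of 3.01. In edgeR the log2 fold change was 1.37 (SE 0.48, 95% interval 0.26 to 2.48), with an unadjusted p = 0.0221 and an adjusted p = 0.221, so the difference was not called. The length used for this gene, 17.1 kb, is above that of 99.1% of the tested genes. Deviations of the tested genes from their means over all libraries correlated with gene length. Spearman correlations were −0.388, −0.401, and 0.347 in vehicle replicates 1 to 3 and 0.184, 0.284, and 0.251 in NJT-2 replicates 1 to 3. With a trend on gene length taken out of each library the log2 fold change of *Acaca* was 0.58. Part of its span overlaps *Gm11437* on the opposite strand, and the sources used here do not state whether counting used the strand.

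*Fasn* (ENSMUSG00000025153, chr11:120805846-120824547, minus strand) encodes fatty acid synthase, the multidomain enzyme that releases palmitate. It had 32.98, 22.6, and 33.6 FPKM with vehicle and 74.5, 20.1, and 56.0 FPKM with NJT-2. NJT-2 replicate 2 was the lowest of all libraries, whereas the other NJT-2 libraries were the highest, so the spread within the NJT-2 group was wider than the gap between the means. These means were 29.7 ± 6.16 and 50.2 ± 27.7 FPKM (SD, n = 3). The log2 fold change of 0.49 (SE 0.53, 95% interval −0.73 to 1.71) had an adjusted p = 0.598 in edgeR. The length used for *Fasn*, 10.9 kb, is above that of 93.8% of the tested genes. With the length trend taken out the log2 fold change turned to −0.07, and without both libraries that stood apart it was 1.21, with an adjusted p = 0.0353.

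Upstream sequence is shown for 4 of the genes whose start in RefSeq (GRCm38.p6) lay at or near that of the deposited gene. They were picked so that the start of the citrate branch, the synthase, an elongase, and *Scd3* can be read side by side. *Fads3* also had such a start but is not shown. RefSeq entries were found for 7 of the 9 genes. The sequences run 5′ to 3′ on the strand of the gene and end at the base before its start, and capitals mark matches on either strand to the CCAAT box (CCAAT), the E-box (CACGTG), the GC box (GGGCGG), a nuclear receptor half-site (AGGTCA), and a sterol element pattern (TCACNCCAC).
Acly, chr11:100528001-100528250, minus strand: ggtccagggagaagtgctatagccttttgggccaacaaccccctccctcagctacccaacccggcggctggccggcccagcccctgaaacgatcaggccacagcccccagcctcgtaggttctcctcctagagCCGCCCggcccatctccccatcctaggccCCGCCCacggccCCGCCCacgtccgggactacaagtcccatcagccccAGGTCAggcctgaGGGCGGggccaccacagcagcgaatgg
Fasn, chr11:120824548-120824797, minus strand: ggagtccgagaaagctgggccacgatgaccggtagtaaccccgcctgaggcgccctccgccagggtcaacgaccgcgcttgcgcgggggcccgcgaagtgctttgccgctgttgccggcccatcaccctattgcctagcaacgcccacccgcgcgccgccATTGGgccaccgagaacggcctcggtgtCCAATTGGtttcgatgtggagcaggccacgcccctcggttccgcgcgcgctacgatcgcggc
Elovl1, chr4:118427843-118428092, plus strand: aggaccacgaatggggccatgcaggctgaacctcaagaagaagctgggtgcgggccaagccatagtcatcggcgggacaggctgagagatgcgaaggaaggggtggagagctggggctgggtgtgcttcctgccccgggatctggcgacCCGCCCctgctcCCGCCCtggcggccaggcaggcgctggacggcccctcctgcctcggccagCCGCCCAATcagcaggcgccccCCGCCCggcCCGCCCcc
Scd3, chr19:44203038-44203268, plus strand: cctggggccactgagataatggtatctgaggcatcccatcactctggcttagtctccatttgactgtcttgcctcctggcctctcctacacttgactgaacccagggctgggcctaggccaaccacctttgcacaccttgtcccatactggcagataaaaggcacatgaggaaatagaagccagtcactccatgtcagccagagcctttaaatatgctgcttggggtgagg

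The stretch before *Fasn* held 3 CCAAT matches, a pair of which overlap on opposite strands, and no GC box. Before *Acly* there were 4 GC box matches and 1 half-site, before *Elovl1* 5 GC box matches and 1 CCAAT match, which shares its first bases with one of them, and before *Scd3* no match to any of the 5 patterns. In all 32851 RefSeq windows of 250 bases before a start, 33.8% held a CCAAT box, 32.7% a GC box, 14.0% the half-site, 6.02% the E-box, and 1.05% the sterol pattern. The GC content of the printed sequence was 68.8% for *Acly*, 69.2% for *Fasn*, 72.0% for *Elovl1*, and 52.8% for *Scd3*. A match describes the letters of the window and nothing about binding.

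*Elovl1* (ENSMUSG00000006390, chr4:118428093-118432953, plus strand) encodes an elongase of saturated and monounsaturated very long chains. Its FPKM was 43.6, 38.3, and 25.9 with vehicle and 32.7, 15.2, and 34.3 with NJT-2. The groups overlapped, and NJT-2 replicate 2 was again the lowest library. The log2 fold change was −0.68 (SE 0.46, 95% interval −1.75 to 0.40, adjusted p = 0.417 in edgeR), and it turned to 0.05 without both libraries that stood apart. The gene shares 53 bases with *Cdc20*, a cell cycle gene on the opposite strand.

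*Scd2* (ENSMUSG00000025203, chr19:44293674-44306864, plus strand) encodes a stearoyl-CoA desaturase, which turns saturated acyl-CoA into monounsaturated acyl-CoA, and was the most abundant of the 9 transcripts in both groups. The vehicle libraries had 49.7, 125, and 171 FPKM and the NJT-2 libraries had 302, 169, and 301 FPKM. NJT-2 replicates 1 and 3 were above every vehicle library, and NJT-2 replicate 2 lay slightly under vehicle replicate 3. Means of 115.5 ± 61.4 and 257.3 ± 76.8 FPKM (SD, n = 3) gave a fold of 2.23. The log2 fold change in edgeR was 1.07 (SE 0.41, 95% interval 0.11 to 2.03), with an unadjusted p = 0.0333 and an adjusted p = 0.253, so it was not called. Without both libraries that stood apart the value was 1.02, with an adjusted p = 0.0372.

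*Scd3* (ENSMUSG00000025202, chr19:44203269-44244016, plus strand), a second desaturase of this family, lies 49657 bases from *Scd2*. Its counts were 0, 0, and 189 with vehicle (0, 0, and 0.74 FPKM) and 792, 430, and 665 with NJT-2 (3.14, 1.73, and 2.68 FPKM). Every NJT-2 library was above every vehicle library. For *Scd3* a log2 fold change of 3.37 came with an SE of 1.84 and a 95% interval of −0.90 to 7.64 (adjusted p = 0.338 in edgeR). This value rests on vehicle replicate 3, the only vehicle library with counts, and was 12.22 without it. As a share of the summed FPKM of *Scd2* and *Scd3*, *Scd3* made up 0.43% in vehicle replicate 3 and 1.03%, 1.02%, and 0.881% in NJT-2 replicates 1 to 3.

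The desaturase genes share some sequence. Of the 50-base words in the annotated transcripts of *Scd3*, 4.77% were also in *Scd1*, 3.89% in *Scd2*, and 1.94% in *Scd4*, so the counts of *Scd3* are uncertain to the extent that reads of a paralog were placed on it, which was not tested. *Scd1* and *Scd4* were not analysed here. Vehicle replicates 1 and 2 had 0 *Scd3* counts beside 15768 and 61069 *Scd2* counts, and 3 counts, the limit that a count of 0 allows, would be 0.019% and 0.0049% of the latter. *Scd3* also overlaps an antisense gene over 18221 bases.

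The FADS genes lie together on chromosome 19, with 2654 bases between *Fads3* and *Fads2* and 81141 bases between *Fads2* and *Fads1*. *Fads2* (ENSMUSG00000024665, chr19:10062765-10101746, minus strand) encodes the enzyme that takes linoleic and α-linolenic acids through the first, rate-limiting desaturation. Its FPKM was 19.4, 43.9, and 39.5 with vehicle and 20.9, 8.10, and 20.4 with NJT-2. All NJT-2 libraries were below vehicle replicates 2 and 3, but vehicle replicate 1 was as low as the NJT-2 libraries, so the groups overlapped. The means were 34.3 ± 13.1 and 16.4 ± 7.23 FPKM (SD, n = 3), and the fold of NJT-2 over vehicle was 0.480. In edgeR the log2 fold change was −1.19 (SE 0.40, 95% interval −2.13 to −0.25), with an unadjusted p = 0.0194, the smallest among the 9 genes, and an adjusted p = 0.218. Without both libraries that stood apart it was −1.02, with an adjusted p = 0.0146.

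*Fads1* (ENSMUSG00000010663, chr19:10182888-10196877, plus strand) encodes the desaturase whose product is arachidonic acid. It had 19.7, 32.9, and 31.6 FPKM with vehicle and 29.3, 10.3, and 28.1 FPKM with NJT-2. NJT-2 replicate 2 was the lowest library, and the other NJT-2 libraries lay within the vehicle range. Its log2 fold change was −0.48 (SE 0.41, 95% interval −1.43 to 0.47, adjusted p = 0.506 in edgeR). Leaving out NJT-2 replicate 2 brought it to −0.16, and leaving out both libraries that stood apart brought it to −0.18.

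*Fads3* (ENSMUSG00000024664, chr19:10041569-10060110, plus strand) encodes a desaturase of sphingoid bases. Its FPKM of 32.7, 39.6, and 31.0 with vehicle and 44.96, 28.3, and 45.1 with NJT-2 overlapped, with NJT-2 replicate 2 lowest and the other NJT-2 libraries highest. A log2 fold change of −0.02 was fitted (SE 0.34, 95% interval −0.80 to 0.76, adjusted p = 0.978 in edgeR), and its sign turned under 8 of 19 other settings, so no direction can be given. The interval leaves room for differences of up to 0.80 on the log2 scale either way. *Fads2* and *Fads3* share only 5 of their 50-base words, and *Fads1* shares none with either.

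**Figure D2:**
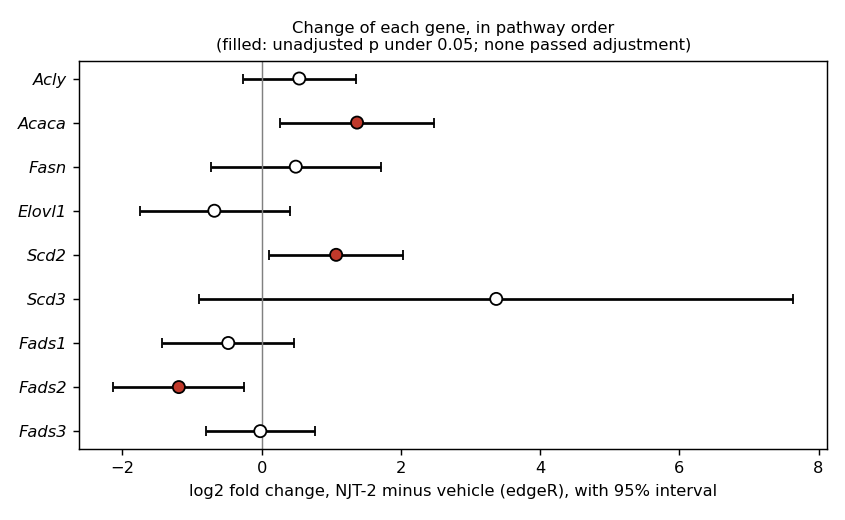
Log2 fold change of NJT-2 over vehicle for each gene in pathway order, as fitted by edgeR, with 95% intervals. Filled points had an unadjusted p under 0.05, and these are *Acaca* (1.37), *Scd2* (1.07), and *Fads2* (−1.19), while the interval of *Scd3* runs from −0.90 to 7.64.

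The NJT-2 libraries differed among themselves. Measured as log2(FPKM + 1) against the vehicle mean, 7 of the 9 genes were above it in NJT-2 replicate 1, 7 in replicate 3, and only 4 in replicate 2. The median deviation of the 9 genes was 0.51, −0.27, and 0.47 in NJT-2 replicates 1, 2, and 3, beside 0.14, 0.04, and 0.14 over all tested genes. In NJT-2 replicate 2, *Acaca* deviated by 0.25 where the other NJT-2 libraries had 1.85 and 1.74. *Fasn* was at −0.52 there against 1.32 and 0.91, and *Fads2* was at −1.87 against −0.61 and −0.64. *Acly* was the exception, with 1.07 in replicate 2 and 0.51 and 0.47 in the others. This library also had the lowest sum of adipocyte markers in its group (489 FPKM against 1720 and 1380), and its part in the uneven pattern was not tested.

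**Figure D3:**
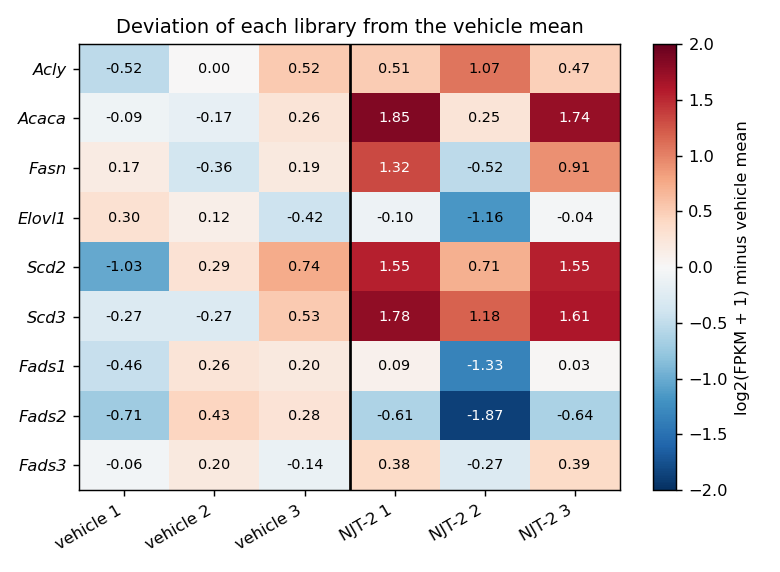
Difference of each library from the vehicle mean in log2(FPKM + 1), with red above and blue below it. *Acly*, *Acaca*, *Scd2*, and *Scd3* are above the vehicle mean in all NJT-2 libraries, *Fads2* and *Elovl1* are below it in all of them, and NJT-2 replicate 2 departs from its neighbours for *Acaca* and *Fasn*.

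With both libraries that stood apart left out, 4 of the 9 genes were called in edgeR, *Acaca* (log2 fold change 1.91, adjusted p = 0.00694), *Fasn* (1.21), and *Scd2* (1.02) with higher and *Fads2* (−1.02) with lower values, and 13.4% of all genes were called. This fit kept vehicle replicates 2 and 3 and NJT-2 replicates 1 and 3. The NJT-2 pair was the closest of all pairs, at a distance of 11.8 in log2(FPKM + 1), and the vehicle pair was at 27.7. Giving each library a quality weight in voom and limma called 5 of the 9, the same 4 and *Scd3*, against 19.6% of all genes. Its weights were 4.094, 4.366, and 6.935 for vehicle replicate 2 and NJT-2 replicates 1 and 3, but 0.438 for vehicle replicate 3, so it rests mainly on the first of these. Leaving out any single library called none of the 9.

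Levels between genes were compared per length, as mean FPKM. With vehicle, *Scd2* was highest, and *Acly*, *Elovl1*, *Fads3*, *Fads2*, *Fasn*, and *Fads1* followed between 41.0 and 28.1 FPKM, where no gene was above the next in all libraries. *Acaca* at 5.30 FPKM and *Scd3* at 0.247 FPKM were each below the next higher gene in every library. With NJT-2, *Scd2* was above *Acly* (64.9) in every library, *Fads3* (39.5) was above *Elovl1* (27.4), *Elovl1* above *Fads1* (22.5), and *Fads1* above *Fads2* (16.4) in every library, and *Scd3* stayed last at 2.52 FPKM. *Acly*, *Fasn*, and *Fads3*, and at the lower end *Fads2* and *Acaca* (15.9), did not keep 1 order in all NJT-2 libraries. *Scd2* had a higher mean FPKM than 98.1% of all tested genes and *Scd3* than 10.1%. The length behind the FPKM, worked out from the counts and FPKM, exceeded the longest transcript of each of these genes. For *Acaca* it was 17072 bases where the longest transcript has 9513, so that its level may be understated against the others.

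Ratios between genes of the same library do not depend on the total of that library. Of 6 ratios between neighbouring steps or members of 1 family, 4 had no overlap between the groups, and 30.0% of the ratios over all pairs of tested genes were separated in this way. These 4 are not independent, since a pair of them shares *Fasn* and the other pair shares *Fads2*. *Fads1* over *Fads2* was 1.01, 0.750, and 0.799 with vehicle and 1.40, 1.27, and 1.38 with NJT-2, so every NJT-2 library had more *Fads1* than *Fads2* while vehicle libraries had about as much or less. The log2 difference was 0.67 (two-sided exact permutation p = 0.1, adjusted over 6 ratios 0.15). *Fads3* over *Fads2* ran from 0.786 to 1.69 with vehicle and from 2.15 to 3.50 with NJT-2, a log2 difference of 1.27 with the same exact permutation p = 0.1. Among the FADS genes, the edgeR log2 fold change was −1.19 for *Fads2*, −0.48 for *Fads1*, and −0.02 for *Fads3*, and none was called.

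*Fasn* over *Acaca* was 6.77, 5.00, and 5.18 with vehicle and 3.45, 3.13, and 2.82 with NJT-2. This ratio was lower in all NJT-2 libraries, replicate 2 included, by 0.84 on the log2 scale (exact permutation p = 0.1, adjusted 0.15). The ratios were not worked out again with the length trend taken out. In that edgeR fit the log2 fold changes were 0.58 for *Acaca* (adjusted p = 0.600) and −0.07 for *Fasn* (adjusted p = 0.954), against 1.37 and 0.49 in the main fit. *Elovl1* over *Fasn* was 1.32, 1.69, and 0.772 with vehicle and 0.439, 0.756, and 0.612 with NJT-2, a log2 difference of −1.03 (exact permutation p = 0.1, adjusted 0.15), although the closest libraries nearly met. With the length trend taken out, the log2 fold changes of *Elovl1* (−0.38) and *Fasn* (−0.07) lay much closer together than in the main fit (−0.68 and 0.49). What part gene length had in these ratios was not tested. *Acaca* over *Acly* (log2 difference 0.72, exact permutation p = 0.4) and *Scd2* over *Fasn* (0.70, exact permutation p = 0.5) overlapped. With 3 libraries a group, 0.1 is the smallest p this test can give, so none of the ratios could pass 0.05.

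**Figure D4:**
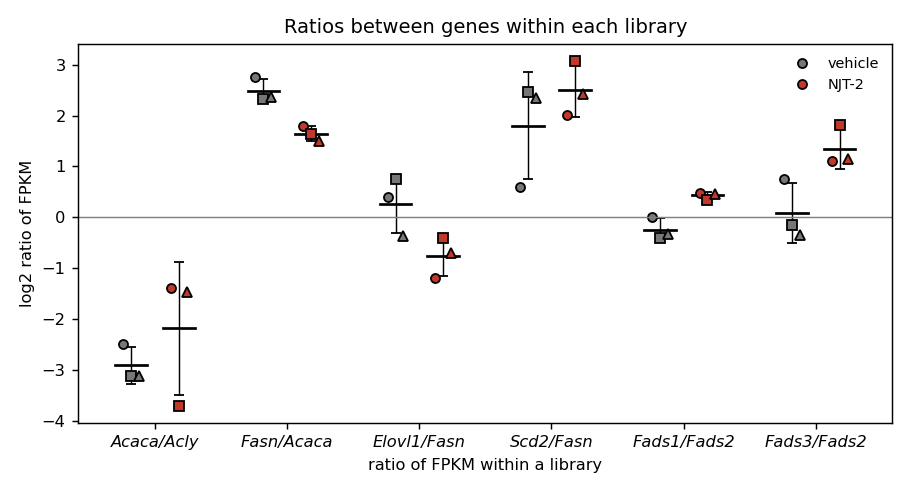
Log2 ratio of FPKM between 2 genes of the same library, with a point per library (symbols as replicates 1, 2, and 3), lines for the mean, and whiskers for 1 SD. The groups separate for *Fasn* over *Acaca*, *Elovl1* over *Fasn*, *Fads1* over *Fads2*, and *Fads3* over *Fads2*, and overlap for the other ratios.

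Genes around the pathway were read from lists of its steps, of which a gene counted as found if it was among the 4864 analysed, whatever its expression. Among genes that supply citrate and acetyl-CoA, 4 of 9 listed were found and tested, 3 were higher, and none was called. *Cs*, citrate synthase, had 17.5, 32.7, and 35.2 FPKM with vehicle and 132, 42.0, and 112 FPKM with NJT-2 (log2 fold change 1.60, adjusted p = 0.164 in edgeR). Every NJT-2 library was above every vehicle library. *Mdh1*, cytosolic malate dehydrogenase (1.37, adjusted p = 0.215), also had an unadjusted p under 0.05. In contrast, *Slc25a1*, which carries citrate out of mitochondria, had a log2 fold change of −0.49 (adjusted p = 0.561), and its FPKM of 69.6, 65.9, and 44.5 with vehicle and 66.4, 25.6, and 63.1 with NJT-2 overlapped.

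Of 15 genes of NADPH supply, 4 were found and tested, 3 were higher, and none was called. *Me2*, a mitochondrial malic enzyme, had an unadjusted p = 0.0359 in edgeR (log2 fold change 2.11), and its value came from NJT-2 replicate 2, with 32.7 FPKM against 4.41 and 4.64 FPKM in the other NJT-2 libraries and 1.86 to 4.09 FPKM with vehicle. Of 16 genes around malonyl-CoA and carboxylase, 3 were found, all 3 had higher values, and none had an unadjusted p under 0.05. Of 17 other elongation genes, 3 were among the genes analysed here, and 1 of these, *Oxsm* of mitochondrial fatty acid synthesis, passed the filter on low FPKM (log2 fold change 0.57).

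In the list of desaturase partners, other desaturases, and neighbours of the FADS genes, 4 of 15 were found and 3 tested, the log2 fold changes of all 3 were negative, and none was called. *Cyb5r3* (log2 fold change −0.83) and *Cyb5a* (−0.34), which pass electrons to the desaturases, were not past an unadjusted p of 0.05. The gene that was, *Fen1* (−1.0, adjusted p = 0.185 in edgeR), was listed as a neighbour of the FADS genes and encodes a flap endonuclease of DNA replication. Its FPKM of 6.82, 10.7, and 9.34 with vehicle and 5.41, 4.89, and 4.65 with NJT-2 did not overlap, and proliferation markers had negative log2 fold changes in 6 of 6 genes. Whether these move together was not tested.

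Among enzymes that release or activate fatty acids, 3 of 16 listed genes were tested and 1 was called. *Acot2*, a mitochondrial acyl-CoA thioesterase, rose from 0.34, 0.99, and 1.05 FPKM to 11.1, 9.53, and 8.24 FPKM (log2 fold change 3.52, adjusted p = 0.0270 in edgeR), with every NJT-2 library above every vehicle library. *Acsl1*, the main acyl-CoA synthetase of adipocytes, had 0.92, 2.60, and 3.51 FPKM with vehicle and 155, 9.36, and 122 FPKM with NJT-2, a log2 fold change of 5.24 that missed the threshold (adjusted p = 0.0775). *Acsl5*, another synthetase, had a log2 fold change of −0.91 (adjusted p = 0.182).

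Of 23 listed transcription factors of lipogenic genes and their regulators, 11 were tested and 1 was called. By the sign of the edgeR log2 fold change 10 of the 11 were higher, where 50.8% of all tested genes were higher. Some of the 10 had small values, such as *Rxra* (0.01), *Nfyb* (0.01), and *Nfya* (0.15), for which no direction can be given. *Mlxipl*, which encodes the glucose-responsive factor ChREBP, rose from 0.14, 0.16, and 0.24 FPKM to 6.51, 1.82, and 5.29 FPKM (log2 fold change 4.45, adjusted p = 0.0270 in edgeR), and the groups did not overlap. *Srebf1*, which encodes SREBP-1, had 8.42, 14.1, and 14.6 FPKM with vehicle and 37.0, 13.9, and 32.2 FPKM with NJT-2 (log2 fold change 1.0, unadjusted p = 0.0333, adjusted p = 0.253). Like *Acaca* and *Fasn*, it was at the vehicle level in NJT-2 replicate 2. *Pparg* itself, on the list of adipocyte markers as well, had a log2 fold change of 2.63 (adjusted p = 0.119), and *Nr1h3*, which encodes the oxysterol receptor LXRα, had 1.85 (adjusted p = 0.185). The exception in sign was *Srebf2*, the regulator of sterol genes, with −0.24 (adjusted p = 0.672) and 9.84, 15.1, and 20.6 FPKM against 16.4, 10.2, and 16.02 FPKM.

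Sterol synthesis, which shares SREBP factors with fatty acid synthesis, was split, with 2 of 7 tested genes higher and 5 lower of 22 listed, and none called. The 3 with an unadjusted p under 0.05 were all lower. *Fdft1*, squalene synthase, had 16.3, 16.02, and 11.9 FPKM with vehicle and 9.07, 4.03, and 8.40 FPKM with NJT-2 (log2 fold change −1.30, adjusted p = 0.215 in edgeR). *Tm7sf2*, a sterol reductase, had −1.40 (adjusted p = 0.232), and *Mvd*, mevalonate diphosphate decarboxylase, had −1.44 (adjusted p = 0.236). Over all these lists, both calls (*Acot2* and *Mlxipl*) were lost when any 1 library other than NJT-2 replicate 2 was left out, while leaving out that library gave 5 calls.

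**Figure D5:**
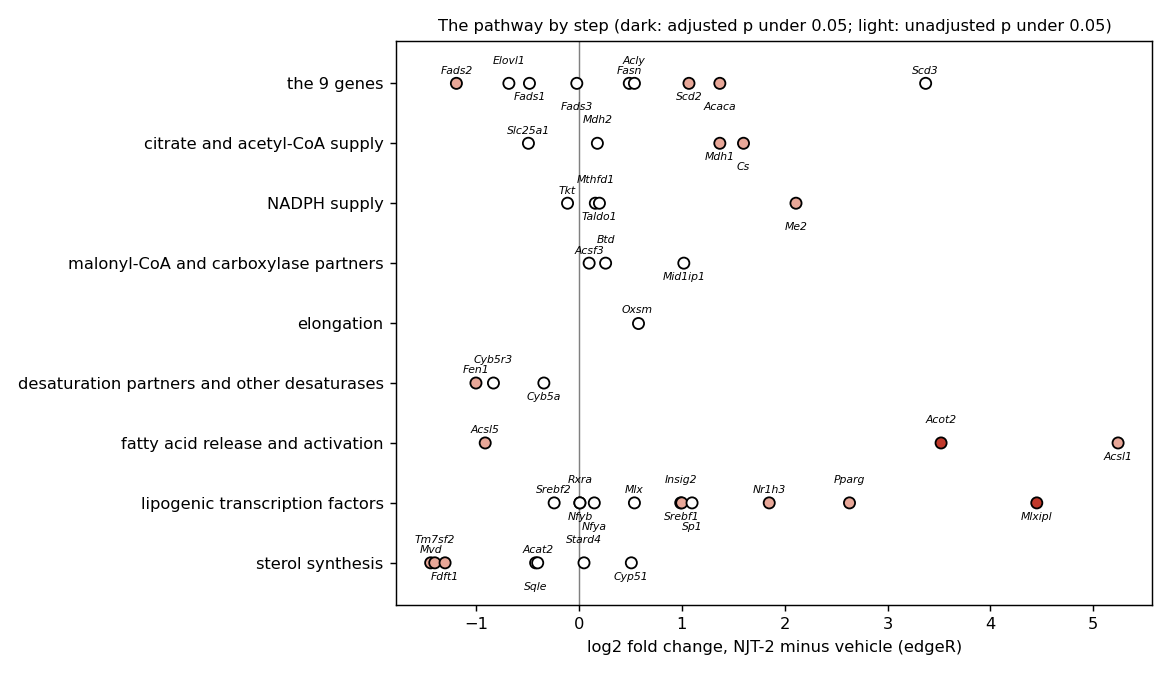
Log2 fold change of NJT-2 over vehicle from edgeR for every tested gene of each list, with 1 point per gene. *Mlxipl* (4.45) and *Acot2* (3.52) are the dark points, the sterol genes with light points lie near −1.30 to −1.44, and the 9 genes lie on both sides of 0.

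Genes with a profile like that of *Fasn* or *Scd2* were sought among the 3467 genes whose FPKM averaged 1 or more, by Pearson's r of log2(FPKM + 1) over the 6 libraries. For *Fasn* they were *L3mbtl2* (r = 0.990), *Ogdh* (0.970), and *Paqr4* (0.966), and for *Scd2* they were *Septin8* (0.996), *Sfmbt1* (0.995), and *Nedd9* (0.994). *Ogdh* had 21.4, 20.9, and 24.1 FPKM with vehicle and 57.5, 16.5, and 46.9 FPKM with NJT-2, which repeats the low NJT-2 replicate 2 of *Fasn*. *Septin8* had 2.58, 7.28, and 10.3 FPKM with vehicle and 16.5, 8.56, and 16.8 FPKM with NJT-2, and shared with *Scd2* the low vehicle replicate 1. The libraries share their depth and marker content in this measure, and with 6 points it ranks genes and tests nothing.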

How the data were processed

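RNA-seq of 6 poly(A) libraries (3 vehicle, 3 NJT-2) was analysed, with groups and replicate numbers taken from the labels. The submitters' processing notes name cutadapt 1.9, HISAT2 2.2.1, StringTie 2.1.6, and GRCm38. The library preparation marked strand, and the counting tool, its use of strand, and the annotation release are not given in the sources used here. The authors deposited raw read counts per gene, not normalized, and FPKM values, which the authors scaled by gene length and library total. The table's 4864 complete lines were used, all with an identifier in GENCODE M21, and 1 line that ends before its values was left out. The lines run in the order of Ensembl numbers, and genes beyond them, such as *Scd1* and *Elovl6*, were not analysed here, so that the number of a list's genes found says nothing about expression.

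Counts were tested with edgeR 4.0.16 in R 4.3.3 (quasi-likelihood, TMM, no block) over 3705 genes whose FPKM averaged 0.5 or more. A call needed an absolute log2 fold change over 1 together with an adjusted p (Benjamini-Hochberg) under 0.05. Ratios were compared by two-sided exact permutation. The code was tested on simulated data. The counts per library make counting error small, and the replicate spread (common biological coefficient of variation 0.504) sets the precision. Named genes were all 9 members, pathway genes that were called or had an unadjusted p under 0.05 (at most 6 a list), and the 3 closest profiles to *Fasn* and *Scd2*. The other pathway genes given with values were named after their values were seen. The members and lists were chosen with earlier results of these data known. Alternatives were DESeq2 1.42.0, other scalings and filters, limma 3.58.1 on FPKM, voom with quality weights, a length trend, a replicate block, and leaving out libraries. No pairing of samples by replicate number was seen, though so few libraries cannot exclude it. No pair of libraries agreed within sampling noise. The values of 2 genes of the pathway lists are not reported here, and the counts over these lists leave them out.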

Additional observations from a re-analysis of the deposited data

How the results depend on the processing

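The count of the 9 genes called was 0 under DESeq2, other factors, other filters, limma on FPKM, the replicate block, the length trend, and without any single library, and it moved to 5 with voom quality weights and to 4 without both libraries that stood apart. By unadjusted p it was 3. Between 5 and 6 of the 9 genes were higher when 1 library was left out. Pathway genes called numbered 2, and 7 with DESeq2, 1 with limma on log2(FPKM + 1), 10 with voom quality weights, 10 without both libraries, and 0 to 5 without 1 library. *Fads3* turned to 0.20 with implied library totals, 0.17 with limma on FPKM (both pseudocounts), 0.18 with voom, 0.08 with the length trend taken out, 0.14 without vehicle replicate 1 or without NJT-2 replicate 2 (−0.21 to 0.14 without 1 library), and 0.34 without both libraries. *Fasn* turned to −0.07 with the length trend taken out and *Elovl1* to 0.05 without both libraries. The cause was not tested. Same-numbered replicates deviated with correlations of 0.191, −0.036, and −0.17, and those with unlike numbers with −0.235 to 0.215. These few values showed no pairing by number but cannot exclude it. The replicate block called 0 of the 9 genes, 3 pathway genes, and 57 of all genes where 26 were called without it. All genes called were 289 with DESeq2, 725 with voom weights, 40 with the length trend, 496 without both libraries, and without 1 library 0 (vehicle replicate 2) to 80 (NJT-2 replicate 2), with 4 or fewer for any library other than the latter. Implied totals and limma on FPKM moved the median log2 fold change of all genes by 0.12 to 0.15. Every ratio kept its sign without 1 library, with log2 differences of 0.32 to 1.48 (*Acaca* over *Acly*), 0.09 to 1.03 (*Scd2* over *Fasn*), −0.92 to −0.70 (*Fasn* over *Acaca*), −1.35 to −0.78 (*Elovl1* over *Fasn*), 0.58 to 0.80 (*Fads1* over *Fads2*), and 1.04 to 1.60 (*Fads3* over *Fads2*). *Scd3* was not tested under the filter of 10 counts in every library. Depth did not limit the abundant genes, and counts near 0 limited *Scd3* in the vehicle group.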
